A study of Mus musculus with 9 samples.

Results

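The miR-92 and miR-25 seed family was followed in small RNA sequencing of small extracellular vesicles from mouse serum. Its members here were mmu-miR-92a-3p, mmu-miR-25-3p and mmu-miR-363-3p (the prefix for mouse is left out below), taken by name from the table of known microRNA counts, where they were 3 of 1064 known microRNAs. Each had counts in all 9 libraries. The libraries fell into 3 groups of 3. The first was from mice with adipose-specific overexpression of the mitochondrial deacetylase gene Sirt3 that were fed a high fat diet (HFD Sirt3 AKI). The second was from wild-type mice fed a high fat diet (HFD WT), and the third from wild-type mice fed chow (chow WT). The genotype comparison set HFD Sirt3 AKI against HFD WT, and the diet comparison set HFD WT against chow WT. The sources used here give neither the promoter that drives Sirt3 in adipose tissue nor the age or number of mice behind a library. The names of the HFD WT libraries carry the code SIRT3CKI although their genotype label is wild type, while those of HFD Sirt3 AKI carry SIRT3CKIcr and those of chow WT carry WT. Sirt3 mRNA was not measured, so these data do not check the genotype. A commercial precipitation reagent had been used on the serum, and the pelleted vesicles were taken up in PBS.

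A microRNA guides Argonaute to messenger RNAs mainly through its seed, bases 2 to 8 from the 5′ end, so microRNAs with one seed share many predicted targets and are grouped as a family. The members of this family come from 3 related polycistrons, primary transcripts that carry several hairpins in a row: the miR-17 to miR-92a-1 cluster, the miR-106b to miR-25 cluster and the miR-106a to miR-363 cluster. The clusters are known for roles in cell proliferation and in blood cell development. miR-92a-3p and miR-25-3p are abundant in red blood cells and are commonly found in serum and plasma.

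The mature sequences are shown because the comparisons turn on microRNAs that share a seed but differ in their remaining bases. They are from RefSeq (build GRCm38.p6), 5′ to 3′, with the seed in capitals, and include the other family microRNAs in the table, miR-92b-3p and miR-32-5p.
miR-92a-3p: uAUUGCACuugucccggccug
miR-25-3p: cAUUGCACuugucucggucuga
miR-363-3p: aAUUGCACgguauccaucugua
miR-92b-3p: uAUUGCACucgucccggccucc
miR-32-5p: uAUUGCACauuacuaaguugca

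All carried the seed AUUGCAC. Counting positions from 1 at the 5′ end and naming the base of miR-92a-3p first, miR-25-3p differed from miR-92a-3p at 3 of the 21 positions compared, as U1C, C14U and C18U. The sequence of miR-363-3p was identical to that of miR-92a-3p at 10 of 21 positions, and at 3 of the 13 positions after the seed. Outside the members, miR-92b-3p was the nearest in sequence to miR-92a-3p, identical at 19 of 21 positions (U10C and G21C).

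Mature miR-92a-3p is encoded at 2 loci with identical mature sequences, so its counts cannot be assigned to either. The hairpins of the loci are shown with the 5p and the 3p arm in capitals, because only the 5p arms tell them apart.
Mir92-1: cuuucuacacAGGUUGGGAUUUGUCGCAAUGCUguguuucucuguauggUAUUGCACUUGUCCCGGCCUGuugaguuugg
Mir92-2: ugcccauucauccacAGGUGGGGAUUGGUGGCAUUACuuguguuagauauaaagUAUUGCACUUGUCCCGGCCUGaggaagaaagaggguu

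In GRCm38, the mature sequence lies at chr14:115044476-115044496 on the plus strand (Mir92-1) and at chrX:52741854-52741874 on the minus strand (Mir92-2). The Mir92-1 locus lies in the exon of the long noncoding RNA Mir17hg, the host transcript of the miR-17 to miR-92a-1 cluster. That cluster spans 836 bases and 6 hairpins. Mature miR-25-3p lies at chr5:138165332-138165353 on the minus strand, inside the gene Mcm7, which encodes a subunit of the replicative helicase. Of the 3 annotated Mcm7 transcripts that cover it, it is intronic in 2 and exonic in 1. The miR-106b to miR-25 cluster spans 498 bases and 3 hairpins. Mature miR-363-3p lies at chrX:52741697-52741718 on the minus strand, in the 875 bases and 6 hairpins of the miR-106a to miR-363 cluster, which also holds Mir92-2. At Mir363 and Mir92-2 the annotation lists the microRNA genes alone.

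The libraries held 2973432, 1729416 and 2109438 counts in HFD Sirt3 AKI, 1953935 to 2162009 counts in HFD WT and 225002 to 306974 counts in chow WT, so the chow WT libraries were the shallowest and depth moved with diet. HFD Sirt3 AKI replicates 2 and 3 carry another batch label than the other 7 libraries. HFD WT over chow WT therefore lies within 1 batch, and HFD Sirt3 AKI replicate 1 is the single library of its group in the larger batch. No other group holds both labels. A fit with the batch label as a term therefore also rests on replicate 1 for the level of HFD Sirt3 AKI. HFD Sirt3 AKI replicate 2 stood apart, with hepatocyte microRNAs at 3.65% of its counts against 0.935% and 1.47% in the other libraries of its group. Its levels were the lowest of its group for all 3 members. The common biological coefficient of variation was 40.2% in HFD Sirt3 AKI, 14.0% in HFD WT and 10.4% in chow WT. Levels below are counts per 1000000 of a library total scaled with TMM factors (trimmed mean of M values), written as normalised CPM. A read covers a whole microRNA of 21 or 22 bases, so levels need no correction for length. The labels do not say whether the libraries of a group came from separate mice, and p-values measure the spread between these libraries alone.

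miR-25-3p was the most abundant member in all 9 libraries, miR-92a-3p the next, and miR-363-3p lay far below both. By count, miR-25-3p ranked between 8 and 11 among all microRNAs in HFD Sirt3 AKI, between 8 and 10 in HFD WT and between 14 and 15 in chow WT. The rank of miR-92a-3p was 11 to 13 in HFD Sirt3 AKI and 14 to 17 in HFD WT, against 33 to 39 in chow WT. The order of the groups differed between members. For miR-92a-3p the mean normalised CPM was highest in HFD Sirt3 AKI, then HFD WT, then chow WT, and the first pair of neighbours in that order overlapped. For miR-25-3p it was highest in HFD WT, then HFD Sirt3 AKI, then chow WT, and no groups overlapped.

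**Figure D1:**
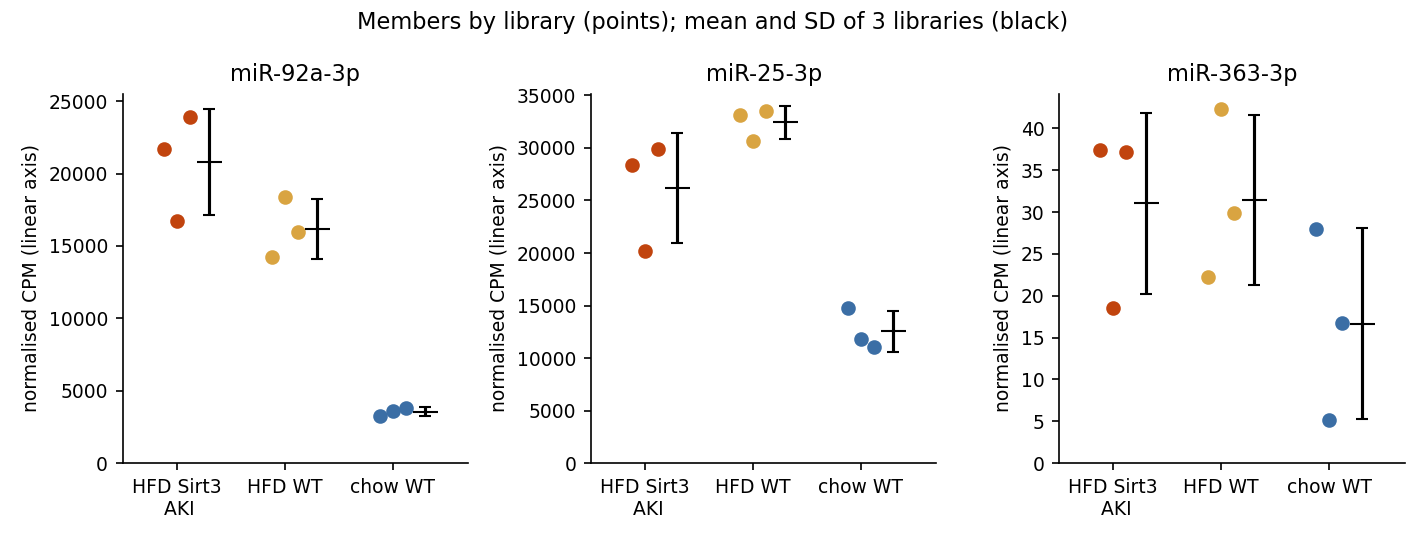
Normalised CPM (linear axis from 0) of the 3 members in each library, with the mean and SD of each group of 3 in black beside the points. The chow WT libraries lie below all others for miR-92a-3p and miR-25-3p, whereas the groups overlap for miR-363-3p.

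In HFD WT against chow WT vesicles, the abundant members both rose. miR-92a-3p was 4.54-fold higher and miR-25-3p was 2.58-fold higher, while the scarce member miR-363-3p did not pass the test. The level of miR-92a-3p was 14239, 18344 and 15944 normalised CPM in the HFD WT libraries, against 3249.8, 3625 and 3824 in the chow WT libraries. Every HFD WT library thus lay far above every chow WT library. The group means were 16176 ± 2062 and 3566 ± 292 normalised CPM (SD, n = 3 each). The log2 fold change was 2.18 (SE 0.16, 95% interval 1.84 to 2.52, edgeR adjusted p = 4.47e-06), rank 3 by p and rank 5 by fold change among the 414 microRNAs tested.

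miR-25-3p stood at 33107, 30627 and 33561 normalised CPM in HFD WT, against 14761, 11819 and 11062 in chow WT. These groups did not overlap either, and their means were 32432 ± 1579 and 12547 ± 1954 normalised CPM (SD, n = 3 each). Its log2 fold change was 1.37 (SE 0.16, 95% interval 1.01 to 1.73, edgeR adjusted p = 6.02e-05). Thus 2 of 3 members were called, both higher. Over all microRNAs tested, 37.7% were called in this comparison, 21.5% higher and 16.2% lower, and in 30.9% every HFD WT library exceeded every chow WT library. The median log2 fold change was 1.37 over the members and 0.15 over all tested.

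miR-363-3p had 40, 65 and 45 counts in HFD WT but 11, 2 and 5 counts in chow WT. As levels these were 22.2, 42.3 and 29.9 normalised CPM in HFD WT, against 28.0, 5.22 and 16.7 in chow WT, and the groups overlapped. The counting error alone was wide in the shallow libraries, with exact Poisson intervals (95%) of 14.0 to 50.2 normalised CPM in chow WT replicate 1 and 0.632 to 18.8 in replicate 2. The log2 change of 0.91 (SE 0.53, 95% interval -0.25 to 2.07, edgeR adjusted p = 0.209) did not pass the threshold, and its interval includes the change of miR-25-3p.

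The scaling bears on these sizes. With library totals in place of the TMM factors, the median over all microRNAs tested in HFD WT over chow WT was -0.57 in place of 0.15 (log2 fold change), and 20 were called higher and 143 lower in place of 89 and 67. miR-92a-3p and miR-25-3p were called with library totals too, at log2 fold changes of 1.44 and 0.64. In the authors' deposited TPM, which divide each count by the library total, miR-92a-3p averaged 12678 ± 1073 in HFD WT and 4661 ± 473 in chow WT (SD, n = 3 each). In the same unit miR-25-3p averaged 25541 ± 2198 in HFD WT and 16347 ± 2211 in chow WT. Lower release of vesicles by a given cell type and less of a microRNA in each vesicle cannot be told apart in such data.

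In HFD Sirt3 AKI against HFD WT vesicles, none of the 3 members passed the test. In this comparison 8.94% of the microRNAs tested were called, 1.45% higher and 7.49% lower. miR-92a-3p had 21707, 16755 and 23922 normalised CPM in HFD Sirt3 AKI, against 14239, 18344 and 15944 in HFD WT. Only HFD Sirt3 AKI replicate 2 lay inside the HFD WT range, and the other 2 libraries lay above it. Among all microRNAs tested, 8.7% had every HFD Sirt3 AKI library above every HFD WT library. The means were 20794 ± 3669 and 16176 ± 2062 normalised CPM (SD, n = 3 each), a log2 change of 0.36 (SE 0.15, 95% interval 0.03 to 0.69, edgeR adjusted p = 0.148). Without HFD Sirt3 AKI replicate 2 the log2 fold change was 0.53 (edgeR adjusted p = 0.00614), past the threshold. Within the larger batch, where replicate 1 was the lone HFD Sirt3 AKI library and was assumed to vary like the others, it was 0.57 (edgeR adjusted p = 0.0134), and with the batch label as a term 0.42 (edgeR adjusted p = 0.400). Library totals gave 0.66 (edgeR adjusted p = 0.00993), with a median over all tested of 0.27 in place of -0.02, and with 36 microRNAs called higher and 11 lower in place of 6 and 31. The adjusted p of miR-92a-3p ranged from 0.00614 to 0.400 over the alternatives (edgeR, DESeq2 or limma).

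miR-25-3p had 28391, 20225 and 29908 normalised CPM in HFD Sirt3 AKI, against 33107, 30627 and 33561 in HFD WT. All HFD Sirt3 AKI libraries lay below all HFD WT libraries, as they did for 17.4% of the microRNAs tested. The means were 26175 ± 5208 and 32432 ± 1579 normalised CPM (SD, n = 3 each), and the log2 change of -0.31 (SE 0.16, 95% interval -0.66 to 0.04, edgeR adjusted p = 0.247) did not pass the threshold. In deposited TPM the group means were nearly level, at 25242 ± 2720 in HFD Sirt3 AKI and 25541 ± 2198 in HFD WT (SD, n = 3 each). miR-363-3p had 37.5, 18.5 and 37.2 normalised CPM in HFD Sirt3 AKI and 22.2, 42.3 and 29.9 in HFD WT. Those groups overlapped, and the log2 fold change was -0.01 (SE 0.43, 95% interval -0.96 to 0.94, edgeR adjusted p = 0.998). Its sign turned under other scalings, and the interval leaves changes of nearly 1 log2 unit in either direction undetected.

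In HFD Sirt3 AKI against chow WT vesicles, miR-92a-3p was 5.83-fold and miR-25-3p 2.09-fold higher. This comparison shares the chow WT libraries with the diet comparison and the HFD Sirt3 AKI libraries with the genotype comparison, so it is not independent of them. Of the 3 members 2 were called, both higher, against 39.9% of all tested called, 20.3% higher and 19.6% lower. For miR-92a-3p the log2 fold change was 2.54 (SE 0.16, 95% interval 2.20 to 2.89, edgeR adjusted p = 1.06e-06), again rank 3 by p. For miR-25-3p it was 1.06 (SE 0.16, 95% interval 0.71 to 1.41, edgeR adjusted p = 3.81e-04). For both, every HFD Sirt3 AKI library lay above every chow WT library, as for 22.9% of the microRNAs tested. miR-363-3p averaged 31.0 ± 10.9 normalised CPM in HFD Sirt3 AKI and 16.7 ± 11.4 in chow WT (SD, n = 3 each), with a log2 change of 0.89 (SE 0.52, edgeR adjusted p = 0.201). Without HFD Sirt3 AKI replicate 2 that change was 1.31 (edgeR adjusted p = 0.0319), and within the larger batch 1.36 (edgeR adjusted p = 0.0397). Library totals gave a median over all tested of -0.35 here in place of 0.06, and 40 microRNAs called higher and 130 lower in place of 84 and 81.

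**Figure D2:**
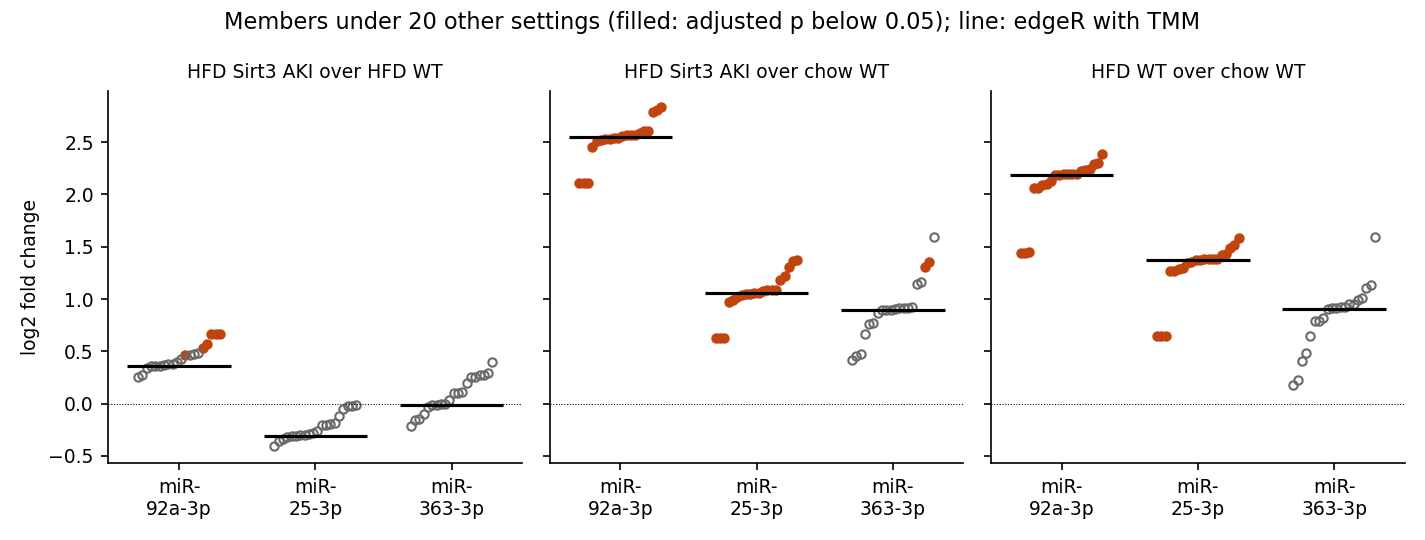
Log2 fold change of each member under 20 other settings (points, filled where the adjusted p is below 0.05), in 3 comparisons, with the value from edgeR and TMM scaling as a line. All points of miR-92a-3p and miR-25-3p over chow WT are filled and above 0, whereas in HFD Sirt3 AKI over HFD WT 6 of 20 are filled for miR-92a-3p and none for miR-25-3p.

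The proportion of the abundant members to each other separated the groups, at the smallest p the design allows. The ratio of miR-92a-3p to miR-25-3p, which is formed within a library and needs no scaling, was 0.765, 0.828 and 0.800 in HFD Sirt3 AKI, 0.430, 0.599 and 0.475 in HFD WT, and 0.220, 0.307 and 0.346 in chow WT. The 3 groups were separate, with HFD Sirt3 AKI on top and chow WT lowest. On the log2 scale the ratio averaged -0.33 ± 0.06 in HFD Sirt3 AKI, -1.01 ± 0.25 in HFD WT and -1.81 ± 0.34 in chow WT (SD, n = 3 each). It was 0.80 higher in HFD WT than in chow WT, and 0.68 higher in HFD Sirt3 AKI than in HFD WT. Each of these differences had a two-sided exact permutation p of 0.1, the smallest that 3 against 3 libraries allow. Adjusted over the 21 ratios compared per comparison, the exact permutation p was 0.140 for the first and 0.150 for the second. Within the larger batch, the ratio was 0.62 higher in HFD Sirt3 AKI replicate 1 than in HFD WT, and without HFD Sirt3 AKI replicate 2 the difference was 0.66.

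As a share of all counts of the seed family (the members with miR-92b-3p and miR-32-5p), miR-92a-3p held 44.3 ± 0.973% in HFD Sirt3 AKI, 33.2 ± 3.79% in HFD WT and 22.4 ± 3.94% in chow WT (SD, n = 3 each). Its share was lowest in chow WT replicate 1, at 17.99%, and highest in HFD Sirt3 AKI replicate 2, at 45.2%. miR-25-3p held 55.6 ± 1.01%, 66.7 ± 3.81% and 77.5 ± 3.87% in the same order of groups. The remaining family microRNAs stayed well below 1% in every group. Together the 3 members took 4.54 ± 0.435% of all counts in HFD Sirt3 AKI, 3.82 ± 0.115% in HFD WT and 2.10 ± 0.176% in chow WT (SD, n = 3 each). By library, the share of the members was 4.68%, 4.05% and 4.88% in HFD Sirt3 AKI, 3.94%, 3.71% and 3.82% in HFD WT, and 2.31%, 2.02% and 1.98% in chow WT. No groups overlapped. The share was 1.72 percentage points higher in HFD WT than in chow WT and 0.712 points higher in HFD Sirt3 AKI than in HFD WT, with an exact permutation p of 0.1 for each difference.

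**Figure D3:**
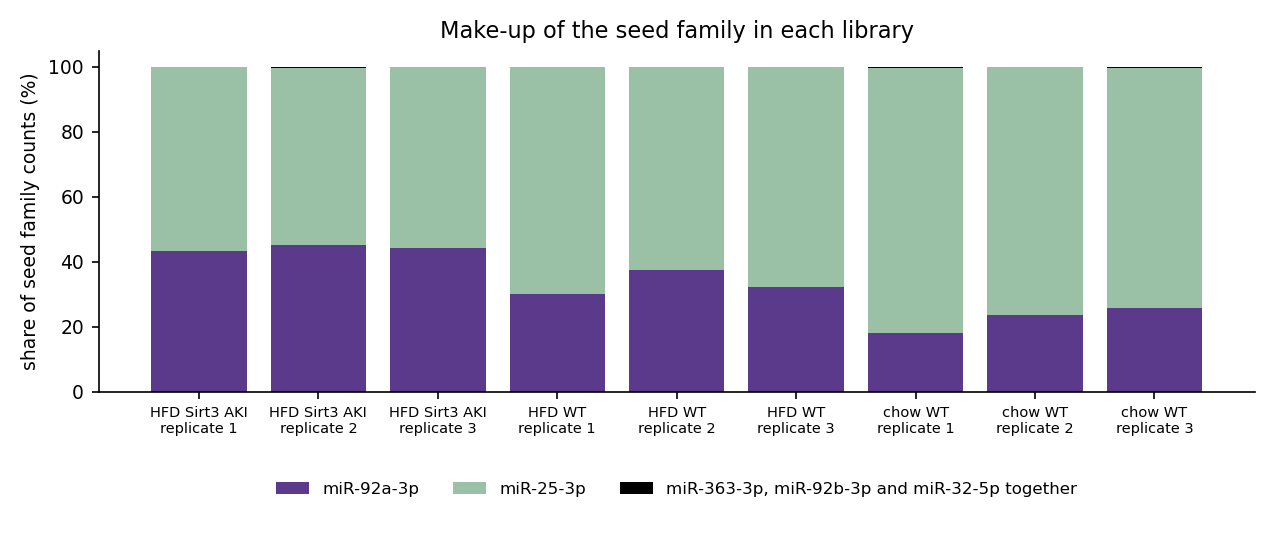
Make-up of the seed family counts of each library in percent, as stacked bars from 0: miR-92a-3p at the bottom, miR-25-3p above it, and the other 3 family microRNAs together in black, too thin to see. miR-92a-3p takes 43.3% to 45.2% in the HFD Sirt3 AKI libraries, 30.0% to 37.4% in the HFD WT libraries and 17.99% to 25.6% in the chow WT libraries.

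Over chow WT, the log2 fold changes of the other products of the clusters were all below that of the abundant member of the same cluster, and some were negative. Apart from the members, 25 products of the 3 clusters were listed, opposite arms included, of which 21 were in the table and 16 had enough counts to be tested. In HFD WT over chow WT, 5 of the 16 were called higher and 1 lower, with a median log2 fold change of 0.43. Over all tested, 21.5% were called higher and 16.2% lower, with a median of 0.15. With library totals none of the 16 was higher and 5 were lower, and their median turned to -0.30. Of all 414 tested, library totals gave 20 higher and 143 lower. In the miR-17 to miR-92a-1 cluster, miR-20a-5p, a member of the miR-17 seed family, averaged 2722 ± 258 normalised CPM in HFD WT and 1754 ± 202 in chow WT (SD, n = 3 each). Its log2 fold change was 0.63 (edgeR adjusted p = 0.0140), and -0.10 with library totals. That call was lost without HFD WT replicate 3 (0.60), without chow WT replicate 1 (0.56) and with DESeq2 size factors (0.52), and held under 14 of 20 alternatives. miR-17-3p, the 3p arm of the miR-17 hairpin, fell, at a log2 change of -1.23 (edgeR adjusted p = 0.00127). miR-18a-3p rose by 1.17 (edgeR adjusted p = 0.00634). In the miR-106b to miR-25 cluster, miR-93-5p rose by 0.89 (edgeR adjusted p = 6.75e-04) and miR-106b-3p by 0.82 (edgeR adjusted p = 0.00104), changes that were 0.15 and 0.08 and not called with library totals. In the miR-106a to miR-363 cluster, miR-20b-5p rose by 0.54 (edgeR adjusted p = 0.0208), a value that turned to -0.19 with library totals and whose call was lost without HFD WT replicate 2 (0.46) or without chow WT replicate 1, 2 or 3 (0.51, 0.59 and 0.56). It was called under 11 of 20 alternatives.

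Of the 16 cluster products, 5 fell in HFD Sirt3 AKI over HFD WT and none was called higher. Over all tested, 7.49% were called lower and 1.45% higher. The median log2 fold change of the 16 was -0.51, beside -0.02 over all tested. Library totals left 3 of the 16 called lower, beside 11 of all 414 tested. The median of the 16 was then -0.21, beside 0.27 over all tested. miR-20a-5p fell most, to 1113 ± 257 normalised CPM in HFD Sirt3 AKI, against 2722 ± 258 in HFD WT (SD, n = 3 each). Its log2 fold change was -1.29 (SE 0.17, edgeR adjusted p = 0.00318). miR-17-5p, the name-giving product of the first cluster, fell by 1.05 (edgeR adjusted p = 0.00473). miR-93-5p averaged 32630.2 ± 6664 normalised CPM in HFD Sirt3 AKI and 58361 ± 5326 in HFD WT (SD, n = 3 each), a log2 fold change of -0.84 (edgeR adjusted p = 0.00559). It was thereby more abundant than its cluster mate miR-25-3p in both groups. miR-20b-5p fell by 0.71 (edgeR adjusted p = 0.0139), a call lost without HFD Sirt3 AKI replicate 3, HFD WT replicate 2 or HFD WT replicate 3 (-0.74, -0.61 and -0.75) and kept under 10 of 20 alternatives. miR-106b-3p fell by 0.51, at an edgeR adjusted p of 0.0497 that passed under 3 of 20 alternatives, and not without HFD Sirt3 AKI replicate 2 or without any one of the HFD WT or chow WT libraries. With the batch label as a term, the edgeR adjusted p was 0.0652 for miR-20a-5p, 0.172 for miR-17-5p and 0.188 for miR-93-5p, and the number of microRNAs called in all was 1. Fitted on the 2 groups alone, miR-17-5p and miR-93-5p were not called either (edgeR adjusted p = 0.0548 and 0.0557). Without HFD Sirt3 AKI replicate 2, miR-20a-5p, miR-17-5p and miR-93-5p stayed called, with log2 fold changes of -1.10, -0.91 and -0.64. Within the larger batch, where HFD Sirt3 AKI replicate 1 was alone, their values were -0.83, -0.82 and -0.54. In all they were called under 19, 18 and 18 of 20 alternatives.

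In HFD Sirt3 AKI over chow WT, 20.3% of all tested were called higher and 19.6% lower. Of the same 16 cluster products, 1 rose there, miR-18a-3p by 1.32 (edgeR adjusted p = 0.00270), and 4 fell, all from the miR-17 to miR-92a-1 cluster. These were miR-17-3p at -1.34, miR-17-5p at -0.88, miR-19b-3p at -0.83 and miR-20a-5p at -0.66 (edgeR adjusted p = 7.17e-04, 0.00301, 0.00425 and 0.0108). miR-19b-3p is also encoded in the miR-106a to miR-363 cluster. The call of miR-20a-5p was lost without HFD Sirt3 AKI replicate 2, at -0.34 (edgeR adjusted p = 0.0771), and without chow WT replicate 2, at -0.56. It was also lost with the batch label as a term (-0.34, edgeR adjusted p = 0.239), in the larger batch (-0.14, edgeR adjusted p = 0.547) and without the filter on low counts (-0.40). miR-19b-3p lost its call with the batch term (-0.72, edgeR adjusted p = 0.0531) and in the larger batch (-0.53, edgeR adjusted p = 0.0629). miR-17-5p lost it in the larger batch (-0.58, edgeR adjusted p = 0.0511) and without the filter (-0.63). miR-17-3p and miR-18a-3p were called under all 20 alternatives. The median over the 16 was -0.33, and -0.75 with library totals.

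**Figure D4:**
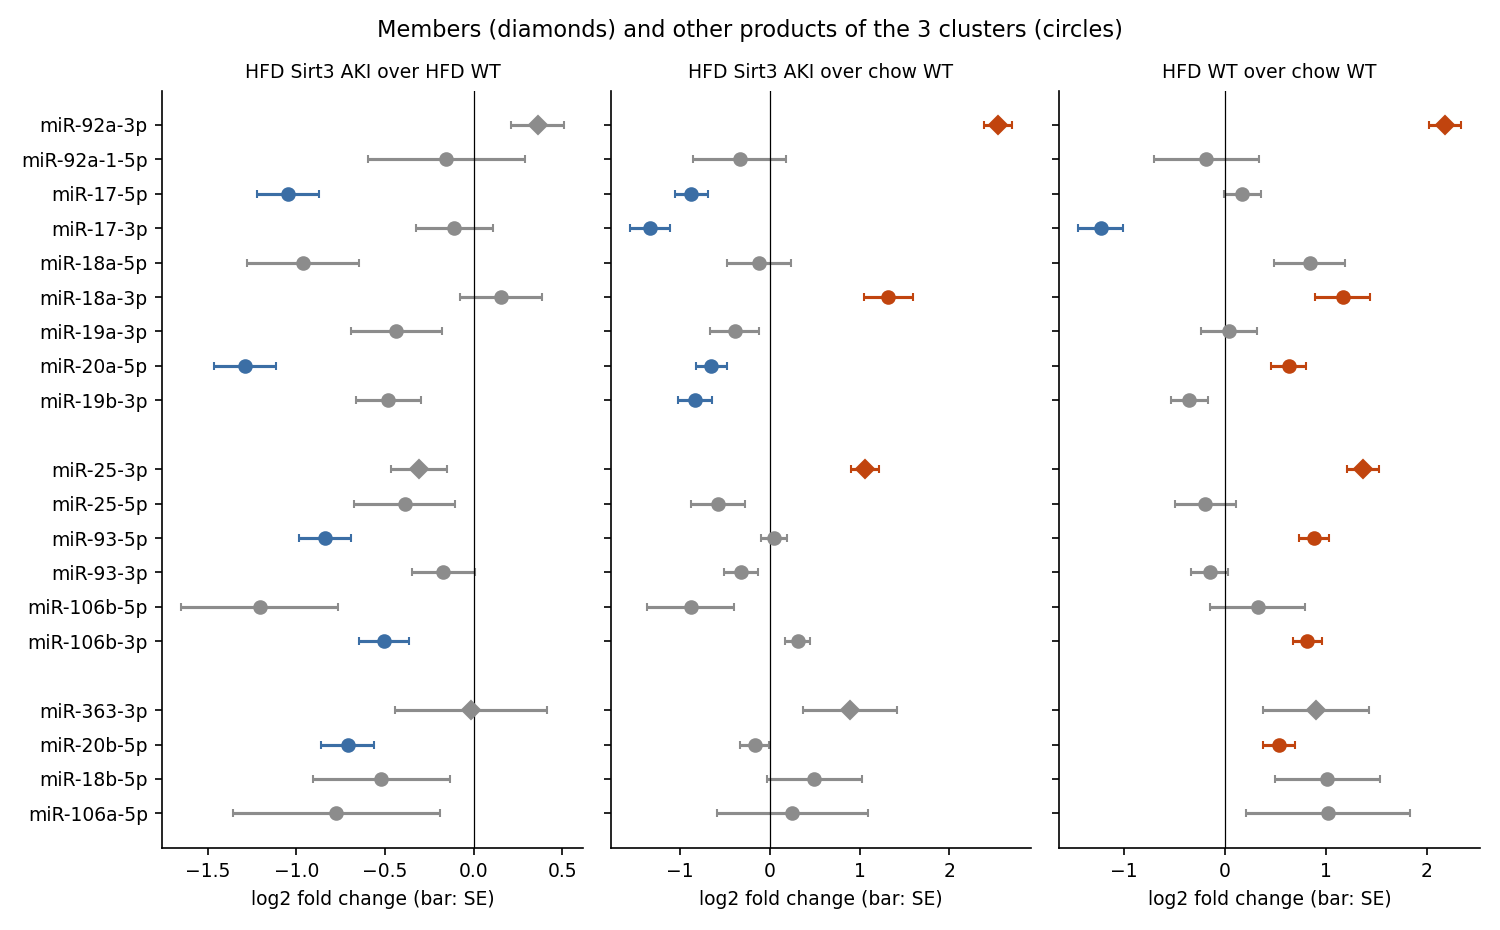
Log2 fold change with its SE for the members (diamonds) and the other tested products of their clusters (circles), arranged by cluster, in 3 comparisons. Red marks an adjusted p below 0.05 and higher, blue the same and lower, grey the rest. In the 2 comparisons with chow WT the diamonds of miR-92a-3p and miR-25-3p lie right of every other product of their own clusters.

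Ratios to cluster mates put the same contrast without any scaling. miR-92a-3p was set against 7 chosen products of its clusters, miR-17-5p, miR-17-3p, miR-18a-5p, miR-19a-3p, miR-20a-5p, miR-19b-3p and miR-20b-5p. Among those left out was miR-18a-3p, whose log2 fold change was the highest of the tested cluster products outside the members. It was 1.17 in HFD WT over chow WT, 0.15 in HFD Sirt3 AKI over HFD WT and 1.32 in HFD Sirt3 AKI over chow WT. In every comparison all 7 ratios were higher and their groups did not overlap. Groups did not overlap in 15, 14 and 17 of all 21 ratios, in that order of comparisons. In HFD WT over chow WT the log2 ratios of miR-92a-3p to these mates were higher by 1.35 to 3.42, and in HFD Sirt3 AKI over HFD WT by 0.49 to 1.66. The ratio to miR-20a-5p was 1.54 higher in HFD WT than in chow WT and 1.66 higher in HFD Sirt3 AKI than in HFD WT. Within the larger batch that genotype difference was 1.40. Of the cluster mates of miR-25-3p, miR-106b-5p and miR-93-3p were left out of the ratios. Their log2 fold changes in HFD Sirt3 AKI over HFD WT were -1.21 and -0.17, beside -0.31 for miR-25-3p, none of them called. There miR-93-3p thus fell less than miR-25-3p. The ratio of miR-25-3p to miR-93-5p was 0.50 higher in HFD WT than in chow WT and 0.53 higher in HFD Sirt3 AKI than in HFD WT, with no overlap. The ratio of miR-25-3p to miR-106b-3p was 0.57 and 0.20 higher in the same comparisons. Each of these had an exact permutation p of 0.1, the smallest possible, and adjusted over the 21 ratios of a comparison none was below 0.05. The groups overlapped for miR-363-3p against miR-20b-5p in all 3 comparisons.

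**Figure D5:**
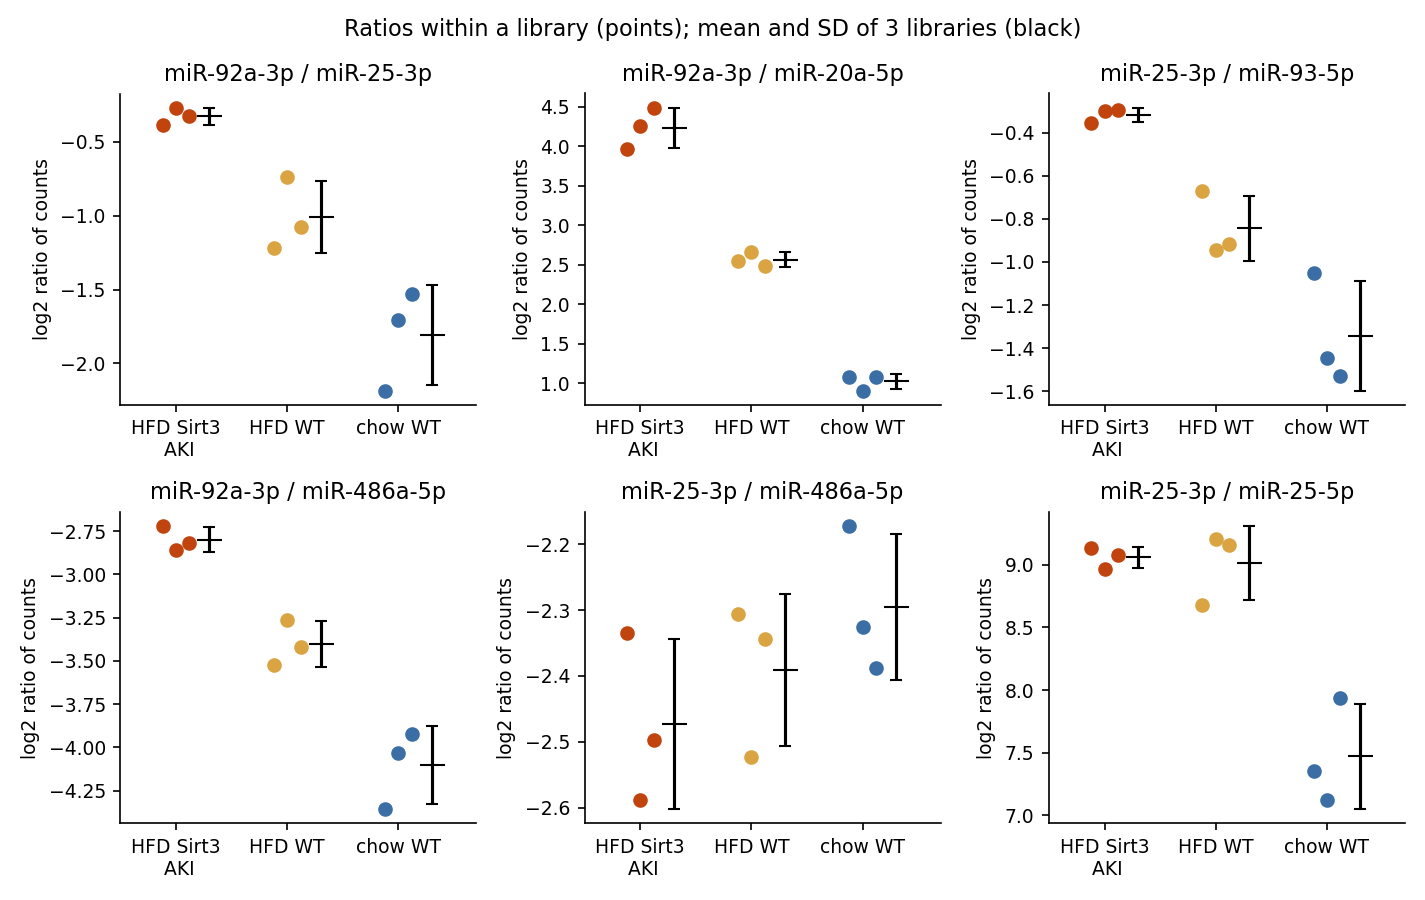
Log2 ratio of counts within a library for 6 pairs of microRNAs (points), with the mean and SD of each group of 3 in black. The groups are separate for miR-92a-3p over miR-25-3p, miR-20a-5p and miR-486a-5p and for miR-25-3p over miR-93-5p, and they overlap for miR-25-3p over miR-486a-5p.

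With TMM scaling, edgeR called the opposite arms of the member hairpins in none of the comparisons. In HFD WT over chow WT, miR-92a-1-5p, the 5p arm of the Mir92-1 hairpin, had 24, 29 and 20 counts in HFD WT and 8, 10 and 1 in chow WT, with a log2 change of -0.18 (SE 0.52, edgeR adjusted p = 0.820). The 5p arm of the miR-25 hairpin, miR-25-5p, had 145, 79 and 88 counts in HFD WT and 35, 32 and 13 in chow WT, with a log2 change of -0.19 (SE 0.30, edgeR adjusted p = 0.671). Neither passed the test, and both signs turned without the filter on low counts. Scaled by library totals, miR-25-5p was lower in HFD WT over chow WT, at -0.91 (edgeR adjusted p = 0.0362), and in HFD Sirt3 AKI over chow WT, at -1.01 in place of -0.58 (edgeR adjusted p = 0.0225). It was called under 3 of 20 alternatives in each of these comparisons, the others being limma on log2 of TPM with either pseudocount. There were 561, 500 and 542 counts of miR-25-3p per count of miR-25-5p in HFD Sirt3 AKI, 409, 592 and 572 in HFD WT, and 163, 139 and 245 in chow WT. The log2 ratio of miR-25-3p to miR-25-5p was 1.54 higher in HFD WT than in chow WT without overlap (exact permutation p = 0.1), and between HFD Sirt3 AKI and HFD WT the difference was 0.045 (exact permutation p = 1.0). The ratio of miR-92a-3p to miR-92a-1-5p was 2.09 higher in HFD WT than in chow WT (exact permutation p = 0.1), but miR-92a-3p also has the Mir92-2 locus as a source. These arm ratios were chosen after their values had been seen. miR-363-5p had 0, 1 and 4 counts in HFD Sirt3 AKI, 1, 0 and 0 in HFD WT, and 0 in each chow WT library, and was too low to test. A count of 0 allows up to 10.02 normalised CPM in chow WT replicate 3, the shallowest library. The 5p arm of Mir92-2, miR-92a-2-5p, was looked for too, but no microRNA of that name was among those counted.

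Among family microRNAs outside the members, miR-92b-3p, encoded at its own locus on chromosome 3, had 41, 72 and 54 counts in HFD Sirt3 AKI, 27, 17 and 23 in HFD WT, and 2, 2 and 1 in chow WT. It averaged 27.0 ± 11.7, 13.8 ± 2.35 and 4.55 ± 1.05 normalised CPM in these groups (SD, n = 3 each). HFD Sirt3 AKI and HFD WT overlapped, and both lay above chow WT. Its fitted log2 fold change was 2.51 in HFD Sirt3 AKI over chow WT (SE 0.54, edgeR adjusted p = 0.00344), a value that rests on 5 chow WT counts in all. With the batch label as a term that call was lost, at 1.65 (edgeR adjusted p = 0.0507), and in the larger batch the value was 1.85 (edgeR adjusted p = 0.0407). It was 1.56 in HFD WT over chow WT (edgeR adjusted p = 0.0512), not past the threshold, and was called there under 5 of 19 alternatives, among them with HFD Sirt3 AKI replicate 1 left out (1.56) or replicate 2 left out (1.68). In HFD Sirt3 AKI over HFD WT it was 0.96 (edgeR adjusted p = 0.126), but 0.097 with the batch term (edgeR adjusted p = 0.919) and 0.23 in the larger batch (edgeR adjusted p = 0.870). Without HFD Sirt3 AKI replicate 1 it was 1.27 and called (edgeR adjusted p = 0.0169). In the library that stood apart, HFD Sirt3 AKI replicate 2, miR-92b-3p was at its highest, 38.1 normalised CPM, where the members were at the lowest of their group. miR-32-5p, encoded on chromosome 4, averaged 12.4 ± 5.79 normalised CPM in HFD Sirt3 AKI, 15.2 ± 4.49 in HFD WT and 9.91 ± 6.91 in chow WT (SD, n = 3 each), with overlapping groups. It was called in none of the comparisons, at edgeR adjusted p between 0.490 and 0.743.

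Because red blood cells are rich in miR-92a-3p and miR-25-3p, red cell microRNAs were read beside them. The 7 listed took 29.4% to 37.2% of counts in HFD Sirt3 AKI, 36.7% to 39.3% in HFD WT and 29.0% to 30.8% in chow WT. None of the 7 was at or near 0. In HFD WT over chow WT 3 of the 7 were called higher and 1 lower, beside 21.5% and 16.2% of all tested. In HFD Sirt3 AKI over HFD WT none was higher and 4 were lower, beside 1.45% and 7.49%. In HFD Sirt3 AKI over chow WT 3 were higher and 2 lower, beside 20.3% and 19.6%. With library totals 2 were higher and 2 lower in the first comparison. The second then had none higher and 2 lower, and the third 2 higher and 4 lower. Of all 414 tested, library totals gave 20 higher and 143 lower in the first comparison. They gave 36 and 11 in the second, and 40 and 130 in the third. miR-486a-5p, a microRNA of maturing red cells whose counts match those of miR-486b-5p in the table, rose in HFD WT over chow WT by 1.47 (edgeR adjusted p = 8.11e-06). miR-451a, the most red cell-restricted of the list, had a log2 fold change of 0.39 in the same comparison (edgeR adjusted p = 0.199), and -0.34 with library totals. Without HFD Sirt3 AKI replicate 2 it was 0.50 and called (edgeR adjusted p = 0.0130), as under 4 of 20 alternatives in all. The log2 ratio of miR-451a to miR-23a-3p, in common use as an index of red cell rupture, was 2.82, 2.17 and 2.69 in HFD Sirt3 AKI, 2.95, 3.39 and 3.14 in HFD WT, and 3.16, 2.79 and 2.96 in chow WT. Every HFD Sirt3 AKI library lay below every HFD WT library, a difference that was not tested. Chow WT overlapped with both other groups, and HFD Sirt3 AKI replicate 2 was the lowest of the 9.

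Ratios of the members to these markers, like those to cluster mates, need no scaling. The log2 ratio of miR-25-3p to miR-486a-5p was -2.39 ± 0.12 in HFD WT and -2.30 ± 0.11 in chow WT (SD, n = 3 each). It was -2.47 ± 0.13 in HFD Sirt3 AKI, and all groups overlapped (exact permutation p between 0.2 and 0.5). The ratio of miR-92a-3p to miR-486a-5p was 0.70 higher in HFD WT than in chow WT and 0.60 higher in HFD Sirt3 AKI than in HFD WT, with no overlap and an exact permutation p of 0.1 each. Against miR-451a, miR-92a-3p was 1.80 and 1.19 higher in the same comparisons, again with no overlap. The ratio of miR-25-3p to miR-451a was 1.00 higher in HFD WT than in chow WT, with no overlap (exact permutation p = 0.1). Between HFD Sirt3 AKI and HFD WT that ratio was 0.51 higher, with overlap (exact permutation p = 0.2). Processed from the same transcript as miR-451a, in HFD Sirt3 AKI over HFD WT miR-144-3p fell by 1.19 (edgeR adjusted p = 0.00432). That call was lost with the batch label as a term (-1.08, edgeR adjusted p = 0.110) and with the 2 groups alone (-1.05, edgeR adjusted p = 0.0557). miR-451a fell by 0.83 at an edgeR adjusted p of 0.0488 that passed under 6 of 20 alternatives, and not without HFD Sirt3 AKI replicate 3, HFD WT replicate 2 or 3, or any one of the chow WT libraries. The part of red cell RNA in the change of the members was not tested. Platelet and leukocyte microRNAs (8 of 8 in the table, none at or near 0) held 3.38% to 3.62% of counts in HFD Sirt3 AKI, 2.91% to 3.12% in HFD WT and 3.18% to 3.38% in chow WT. Hepatocyte microRNAs (4 of 4) held 0.935% to 3.65%, 0.665% to 0.732% and 1.55% to 1.90% in that order of groups, and epithelial ones (7 of 7) 0.670% to 1.72%, 0.332% to 0.470% and 1.44% to 1.60%. Endothelial microRNAs (2 of 2) held 2.46% to 3.05%, 3.05% to 3.30% and 2.60% to 3.08%. Muscle microRNAs (5 of 5, with miR-208a-3p at or under 3 counts over all libraries) held 0.723% to 1.27%, 0.773% to 0.945% and 0.880% to 0.990%. Brain microRNAs (3 of 3) held 0.0138% to 0.435%, 0.0147% to 0.0280% and 0.0573% to 0.117%. Their part in the results was not tested.

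The pattern of each member over the 9 libraries was compared with that of the other 405 known microRNAs tested, by the root mean square difference of log2 normalised CPM after centring each microRNA on its mean. Nearest to miR-25-3p was miR-486a-5p, at 0.121 log2 units, followed by miR-146a-5p at 0.163, miR-214-3p at 0.189, miR-486a-3p at 0.197 and miR-191-3p at 0.198. The median over all others was 0.824. Nearest to miR-92a-3p was miR-215-5p at 0.244, then miR-1198-5p at 0.325, miR-501-3p at 0.379, miR-99b-5p at 0.387 and miR-150-3p at 0.443, beside a median of 1.25. In that order miR-25-3p came at place 26, at a distance of 0.636. For the scarce miR-363-3p the nearest were miR-148b-5p at 0.515, miR-676-5p at 0.534, miR-1964-3p at 0.544, miR-191-3p at 0.556 and miR-421-3p at 0.560, and miR-25-3p came at place 9 with 0.597. All of these distances come from the same 9 libraries and are a description.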

How the data were processed

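Small RNA libraries of serum vesicles were counted over 1169 microRNAs, 1064 known and 105 predicted. The deposited values are raw counts and TPM, and the TPM equal each count per 1000000 of its library total. Per the submitters' processing notes, Bowtie 0.12.2 and the build mm8 were named with no role. Adapter trimming, microRNA reference and counting program: not given in the sources used here. Genome positions and sequences came from the RefSeq table of GRCm38.p6 by name, host genes from GENCODE, and none was converted between builds.

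The filter was filterByExpr with a minimum count of 10. Counts were scaled by TMM and fitted by edgeR 4.0.16 quasi-likelihood in R 4.3.3, with group means over 9 libraries. Adjusted p-values are Benjamini-Hochberg over 414 tested microRNAs (406 known, 8 predicted) at a threshold of 0.05. The filter left out 0.0543% of counts. Ratios are log2 of counts plus 0.5, compared by two-sided exact permutation tests (scipy 1.17.1). Shares have Wilson intervals and levels exact Poisson intervals, which cover counting error only. The floor for a count of 0 is 3 counts. Alternatives used DESeq2 1.42.0 and limma 3.58.1 on log2 of TPM plus 1 or 10.

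The named microRNAs are the members, others of their seed, their opposite arms, the products of their clusters, the 5 nearest in pattern, and red cell readouts. The members and lists were chosen with earlier results of these data known. The marker lists were red cell, platelet and leukocyte, endothelial, hepatocyte, epithelial, muscle and brain.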

Additional observations from a re-analysis of the deposited data

How the results depend on the processing

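Over 20 alternatives, miR-92a-3p and miR-25-3p kept their direction and their call in HFD WT over chow WT (log2 fold changes of 1.44 to 2.39 and 0.64 to 1.58) and in HFD Sirt3 AKI over chow WT (2.11 to 2.83 and 0.63 to 1.38). In HFD Sirt3 AKI over HFD WT, miR-25-3p was called under none (-0.41 to -0.02). There miR-92a-3p passed the threshold with library totals (0.66), the DESeq2 Wald test (0.47), limma on TPM (0.66 with either pseudocount), the larger batch (0.57) and without HFD Sirt3 AKI replicate 2 (0.53). Leaving out 1 library at a time gave 0.26 to 0.53.

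miR-363-3p turned positive in HFD Sirt3 AKI over HFD WT with DESeq2 size factors (0.10), library totals (0.28), no filter (0.034), DESeq2 Wald (0.10), limma on TPM plus 1 (0.26) or 10 (0.20), the 2 groups alone (0.11), the batch term (0.25) and the larger batch (0.40), and ranged from -0.21 to 0.29 without single libraries. Over chow WT, in HFD Sirt3 AKI, it was called in the larger batch (1.36) and ranged from 0.48 to 1.59 without single libraries. Its log2 ratio to miR-25-3p there turned to 0.12 in the larger batch and ranged from -0.65 to 0.27 without single libraries.

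The 37 microRNAs called in HFD Sirt3 AKI over HFD WT became 24 with DESeq2 size factors, 65 with DESeq2, 3 with the 2 groups alone, 1 with the batch term, 23 in the larger batch, and 13 to 102 without single libraries. It was 102 without replicate 1 and 19 without replicate 3 of HFD Sirt3 AKI, 23, 17 and 13 without replicates 1, 2 and 3 of HFD WT, and 24 without replicate 1 or 2 of chow WT. The counts of calls over chow WT stayed within 1.5 times.

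Signs also turned for other values, some of them near 0. In HFD WT over chow WT these were miR-92a-1-5p (0.028 with no filter, -0.61 to 0.29 without single libraries) and miR-25-5p (0.023 with no filter). With library totals, TPM plus 1 and TPM plus 10 they were miR-20a-5p (-0.10, -0.095, -0.095), miR-20b-5p (-0.19, -0.19, -0.19) and miR-451a (-0.34, -0.36, -0.36), and in HFD Sirt3 AKI over HFD WT miR-486a-5p (0.066, 0.063, 0.063). Of these, miR-20a-5p and miR-20b-5p were not near 0 with TMM, where they were called higher at 0.63 and 0.54. Among ratios, miR-363-3p to miR-20b-5p ranged from -0.14 to 1.01 in HFD WT over chow WT without single libraries. For HFD Sirt3 AKI over HFD WT, miR-25-3p to miR-25-5p ranged from -0.12 to 0.14 without single libraries, and miR-25-3p to miR-486a-5p was 0.057 in the larger batch. For HFD Sirt3 AKI over chow WT, miR-363-3p to miR-486a-5p was 0.080 in the larger batch and ranged from -0.85 to 0.15 without single libraries. The cause was not tested.

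Libraries with the same replicate number did not clearly deviate together (correlations of -0.06 to 0.16, 1 of 9 over 0.1). No pairing was seen, but groups of 3 libraries are too small to exclude one. With a replicate block, 154 microRNAs were called in HFD WT over chow WT, 31 in HFD Sirt3 AKI over HFD WT and 161 in HFD Sirt3 AKI over chow WT, and miR-92a-3p in HFD Sirt3 AKI over HFD WT was at 0.36 (edgeR adjusted p = 0.192). Depth limits miR-363-3p, miR-92b-3p and the 5p arms in chow WT, where 3 counts are 7.65 to 10.02 normalised CPM. Groups of 3 were too small to test for single outlying libraries.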
